A study of Mus musculus with 4 samples.

Results

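The chemokines described here are 9 genes of the CXC family and fractalkine, Cxcl1, Cxcl2, Cxcl5, Cxcl9, Cxcl10, Cxcl12, Cxcl13, Cxcl14, Cxcl16 and Cx3cl1. They were taken by name, whatever their values, and make up 10 of the 22913 genes listed for each library, of which 21750 could be matched to a mouse symbol. RNA sequencing was performed on dermal white adipose tissue (dWAT), the fat layer under the dermis that surrounds the base of the hair follicles, microdissected from the skin of C57BL/6 mice. There was 1 library for each of 4 groups: OTD (18 months old, telogen, the resting phase of the hair cycle), YTD (2 months old, telogen), OAD (18 months old, anagen, the growth phase) and YAD (2 months old, anagen). Anagen was induced by depilation, so hair phase and plucking are joined in these groups. Ages follow the sample titles and the treatment notes, and the separate age entries of 2 libraries say otherwise (18 months for YTD, 2 months for OAD). Tissue of several mice went into each group, and whether it was pooled into the library is not spelled out. With 1 library per group there is no replicate error, so no test between groups was made and each difference is one between 2 libraries.

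Chemokines are small secreted proteins that bind receptors of the G protein-coupled class on leukocytes and other cells and direct their migration. CXC chemokines with an ELR motif (Cxcl1, Cxcl2, Cxcl5) act through Cxcr2 and recruit neutrophils, and they are induced by interleukin-1, tumor necrosis factor and interleukin-17 through NF-kappa B. Cxcl9 and Cxcl10 are induced by interferons and bring in T cells and NK cells through Cxcr3, whereas Cxcl12, Cxcl13 and Cxcl14 are made constitutively in many tissues, and Cxcl16 and Cx3cl1 are built as membrane proteins that are shed by proteases.

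The neutrophil attractants and the interferon-induced genes each form a cluster on chromosome 5. On GRCm38, Cxcl5 (ENSMUSG00000029371, chr5:90759299-90761625), Cxcl1 (ENSMUSG00000029380, chr5:90891241-90893115) and Cxcl2 (ENSMUSG00000058427, chr5:90903899-90905909) lie on the plus strand in the same stretch as Ppbp, Pf4 and Cxcl3. Further along, Cxcl9 (ENSMUSG00000029417, chr5:92321331-92328079) and Cxcl10 (ENSMUSG00000034855, chr5:92346638-92348889) lie side by side on the minus strand, and Cxcl13 (ENSMUSG00000023078, chr5:95956928-95961067) follows on the plus strand. Cxcl12 (ENSMUSG00000061353, chr6:117168535-117181367, plus), Cxcl14 (ENSMUSG00000021508, chr13:56288647-56296551, minus), Cxcl16 (ENSMUSG00000018920, chr11:70453983-70459984, minus) and Cx3cl1 (ENSMUSG00000031778, chr8:94772009-94782423, plus) stand elsewhere. Each span is the whole gene, exons and introns.

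The promoters of 2 neutrophil attractants and of both interferon-induced genes are shown because Cxcl1 and Cxcl2 had their highest value in the same library and Cxcl9 and Cxcl10 fell in the same comparisons, as described below. RefSeq's table for GRCm38.p6 held promoters of 8 of the 10 genes, and lacked Cxcl5 and Cxcl16. Each line gives the 250 bases before the RefSeq start, read 5′ to 3′ on the strand of the gene, at chr5:90890995-90891244 for Cxcl1, chr5:90903649-90903898 for Cxcl2, chr5:92328080-92328329 for Cxcl9 and chr5:92348890-92349139 for Cxcl10. Capitals mark matches to GGG and CC with 5 free bases between them (sites of NF-kappa B), to GAAA and GAAA with 2 free bases between them (the core of the interferon-stimulated response element) and to TGANTCA (sites of AP-1), searched on both strands.
Cxcl1: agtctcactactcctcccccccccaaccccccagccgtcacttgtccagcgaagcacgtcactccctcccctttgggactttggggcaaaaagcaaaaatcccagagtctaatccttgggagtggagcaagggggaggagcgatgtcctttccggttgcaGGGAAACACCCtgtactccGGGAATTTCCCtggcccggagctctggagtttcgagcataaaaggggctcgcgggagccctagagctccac
Cxcl2: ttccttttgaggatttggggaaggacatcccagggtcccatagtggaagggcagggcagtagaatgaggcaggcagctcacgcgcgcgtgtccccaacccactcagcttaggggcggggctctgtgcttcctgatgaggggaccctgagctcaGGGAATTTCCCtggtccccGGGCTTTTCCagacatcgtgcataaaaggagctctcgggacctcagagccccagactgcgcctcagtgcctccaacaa
Cxcl9: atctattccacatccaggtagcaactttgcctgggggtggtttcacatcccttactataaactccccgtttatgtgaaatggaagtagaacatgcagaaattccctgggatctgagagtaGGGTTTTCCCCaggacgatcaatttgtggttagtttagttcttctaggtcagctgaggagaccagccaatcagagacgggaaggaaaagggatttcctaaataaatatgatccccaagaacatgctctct
Cxcl10: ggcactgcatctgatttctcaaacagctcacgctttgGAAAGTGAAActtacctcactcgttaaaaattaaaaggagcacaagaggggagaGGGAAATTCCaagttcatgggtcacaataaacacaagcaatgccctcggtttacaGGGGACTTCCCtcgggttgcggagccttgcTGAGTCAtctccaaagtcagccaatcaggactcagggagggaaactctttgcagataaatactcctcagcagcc
The NF-kappa B string, with its 5 free bases, is common, present in 45.8% of 32851 RefSeq promoters of the same length. GGGAATTTCC, the spelling that Cxcl1 and Cxcl2 share, was found in 28 of them (0.0852%). It was taken from the promoters of these 2 genes, so their match was fixed in advance. A string without free bases is also rarer by its form, so this low share does not set the 2 genes apart. Cxcl1 carried GGGAATTTCC from 71 to 62 bases before the start, and Cxcl2 carried it from 97 to 88 bases before the start. The interferon string was found in 2.98% of the promoters, among them those of Cxcl10 (213 to 204 bases before the start) and Cxcl14 (172 to 163), and TGANTCA in 6.75%, among them that of Cxcl10 (74 to 68). These are matches of letters, not measured sites.

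Expression is given as FPKM, the fragments per kilobase of transcript and 1000000 fragments as deposited by the authors. A difference is that of log2(FPKM + 1), a scale that understates the change of low genes, and a gene was counted as higher or lower when it reached 1 in size. Depth was estimated from the steps between low FPKM values as 17900000 to 23100000 fragments per library. Fold changes carry 95% exact intervals from the estimated fragments, which cover counting error only and assume 1 transcript per gene. Markers of fat were present in each library (Adipoq 427, 280, 103 and 76.5 FPKM in OTD, YTD, OAD and YAD). Markers of skeletal muscle made up 1.77% to 8.73% of the summed FPKM, and mitochondrially encoded genes 52.7% and 44.7% in OTD and YTD against 18.3% and 14.4% in OAD and YAD. Hair shaft and keratinocyte genes were high in anagen (Krt5 19.2, 35.0, 618 and 469 FPKM in the same order). These shifts divide the libraries by phase, so a difference between telogen and anagen is also one in tissue makeup. Makeup differed between OTD and YTD as well. Hair shaft and matrix markers were lower in OTD for 13 of 13 genes (median -0.90). Of these, 6 were counted as lower, against 1.45% of all genes. Skeletal muscle markers were lower in OTD for 12 of 12 (median -0.67, 1 counted). In such bulk samples fewer cells of a type and less RNA per cell cannot be told apart.

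**Figure D1:**
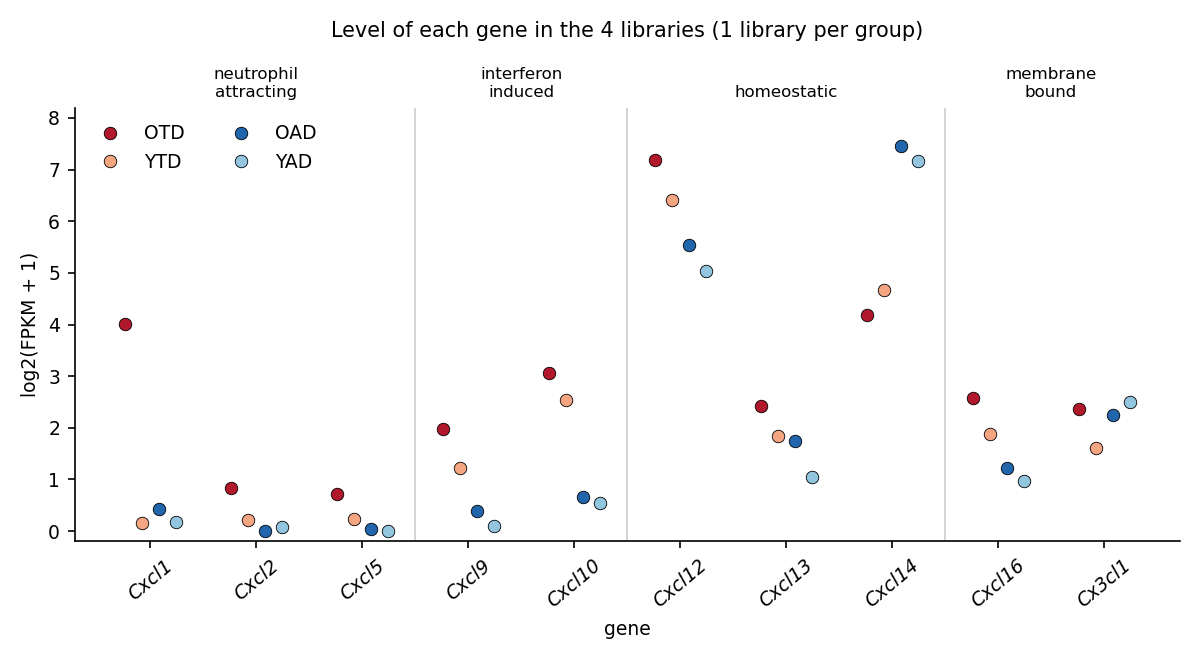
Level of each of the 10 chemokines as log2(FPKM + 1) on a linear axis, with 1 point for each library (OTD, YTD, OAD, YAD) and the genes grouped by role. Cxcl1 stands at 15.1 FPKM in OTD and below 0.4 in the other 3 libraries, and Cxcl12 and Cxcl14 trade places as the highest gene between telogen and anagen.

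Homeostatic members made up most of the summed FPKM of the 10 genes, a sum that leaves out other chemokines such as Pf4. The summed FPKM of the 10 genes came to 202 (OTD), 123 (YTD), 228 (OAD) and 183 (YAD). Cxcl12 took 71.6% and 68.8% of this sum in OTD and YTD and 20.0% and 17.5% in OAD and YAD. Cxcl14 took 8.48%, 19.8%, 76.2% and 78.5% in the same order. Cxcl12 was therefore first in both telogen libraries and Cxcl14 in both anagen libraries. Cxcl10, Cxcl13, Cxcl16 and Cx3cl1 came next in each library, between places 3 and 7, and Cxcl1 held place 3 in OTD, 10 in YTD and 7 in OAD and YAD. The neutrophil attractants summed to 16.6 FPKM in OTD and to 0.443, 0.380 and 0.188 in YTD, OAD and YAD.

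**Figure D2:**
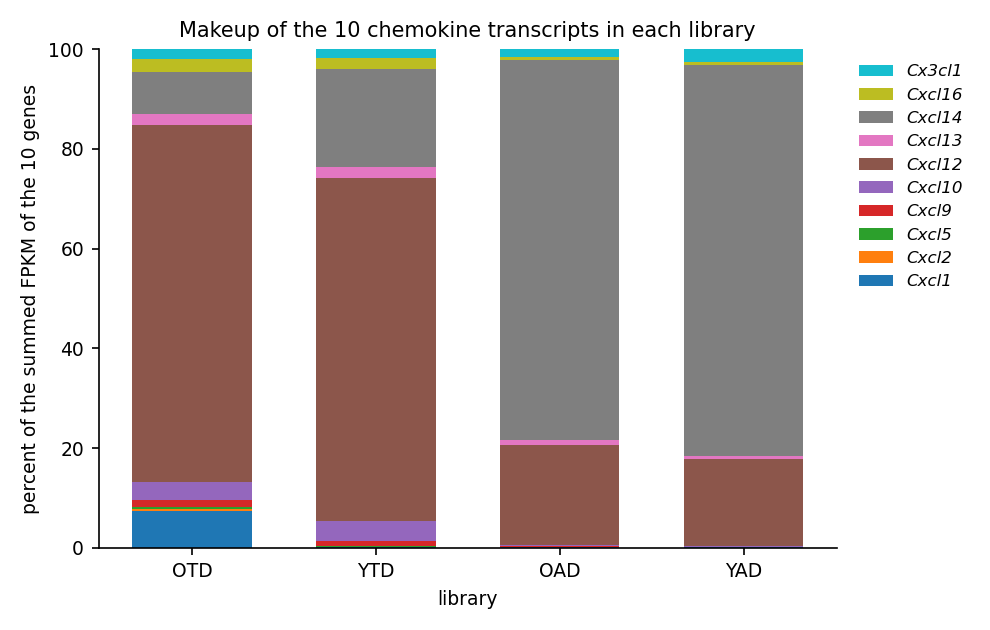
Stacked bars of the percent of the summed FPKM of the 10 chemokines that each gene took in the 4 libraries. Cxcl12 fills most of the bar in OTD (71.6%) and YTD (68.8%), Cxcl14 in OAD (76.2%) and YAD (78.5%), and a share of Cxcl1 that can be seen is present in OTD (7.48%).

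The comparison of OTD with YTD addressed how old dWAT differs from young in the resting phase. Cxcl1 rose, and 8 of the other 9 members lay above their value in YTD by less than the threshold, with Cxcl14 below it. Thus 1 of the 10 was counted as higher and 0 as lower, against 1.25% and 1.45% of all genes, and the median difference of the 10 was 0.66 on the log2 scale against 0 for all genes. Counts of list and marker genes past the threshold in this comparison are to be read against the same shares. All genes split into 287 higher and 333 lower, or 429 and 244 when the sums without mitochondrial and muscle genes were made equal and 407 and 229 when hair shaft genes were left out too, and Cxcl1 was the member counted under each. A value above YTD by any amount was found for 9 of the 10 members, against 34.4% of all genes and 44.0% of those that reached 1 FPKM in either library.

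Cxcl1, a ligand of Cxcr2 that draws neutrophils, had 15.1 FPKM in OTD, against 0.109 (YTD), 0.345 (OAD) and 0.137 (YAD) in the others. OTD alone was high, and the other 3 values came from 1.33 to 5.23 estimated fragments, against 192 in OTD. In OTD its level was at or above that of 80.9% of all genes, in the other libraries at or above that of 32.9% to 37.7%. Between OTD and YTD the log2 difference was 3.86, a ratio of 139 with a wide interval of 32.8 to 7336, as the YTD value rests on about 1 fragment.

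Cxcl2, a Cxcr2 ligand made early by macrophages and mast cells, reached 0.782 FPKM in OTD and 0.158 in YTD, with 0 and 0.0516 in OAD and YAD. Its 12.2 estimated fragments in OTD against 2.38 in YTD gave a ratio of 4.94 (1.29 to 53.1) and a log2 difference of 0.62, under the threshold. Cxcl5, made mainly by epithelial and stromal cells, stood at 0.639, 0.176, 0.0351 and 0 FPKM, with a ratio of OTD to YTD of 3.64 (1.24 to 15.8) and a log2 difference of 0.48. Both genes were highest in OTD, as Cxcl1 was, but at levels 19.4-fold (Cxcl2) and more (Cxcl5) below it in that library. With a pseudocount of 0.1 in place of 1, Cxcl2, Cxcl5 and Cxcl9 passed the threshold as well, making 4 of 10, while the background rose to 9.36%.

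A gene of the same stretch, Cxcl3, which encodes another ELR chemokine, stood at 1.16 FPKM in OTD and 0 in the other 3 libraries, at least 5.16-fold higher in OTD than in YTD when set against 3 fragments. Of the 6 other CXC ligands, Cxcl3 was the 1 counted as higher in OTD (1.11 on the log2 scale, below 1 with TPM), and none was lower. Ppbp, the platelet basic protein, was at 1.41 and 0.919 FPKM in OTD and YTD. Cxcl15 was listed at 0 in each library.

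Receptors of the neutrophil attractants stayed near the detection limit. Cxcr2 was measured at 0.0892 (OTD), 0.0227 (YTD), 0.324 (OAD) and 0.128 FPKM (YAD), the highest value coming from 20.0 estimated fragments. Cxcr1 was detected in OTD (0.227 FPKM, 4.98 fragments) and listed at 0 elsewhere. Cxcr2 was thus highest in OAD, where Cxcl1 was low, and Cxcr1, from few fragments, was seen in OTD alone.

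Markers of neutrophils, the cells that carry Cxcr2, gave a mixed picture beside these values. Of 10 markers, S100a9 (11.7 against 0.656 FPKM) and Retnlg (1.38 against 0) were higher in OTD than in YTD and Camp was lower (-2.00), with a median of 0.06. Of all genes 1.25% were counted as higher and 1.45% as lower. Mpo, Ly6g, Ngp and Ltf were listed at 0 in both telogen libraries. Their summed FPKM was 139, 119, 142 and 59.2 in OTD, YTD, OAD and YAD, most of it S100a8, which keratinocytes express too. Macrophage markers summed to 838 in OTD and 515 in YTD, with a median difference of 0.35 and 1 of 12 (Cd68, 1.20) past the threshold. Their part in the level of Cxcl1 was not tested.

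Genes that induce neutrophil attractants, and feedback repressors of the same route (Nfkbia, Tnfaip3, Zfp36), were counted next in a list of 19. Of these, 17 lay above their YTD value in OTD, against 34.4% of all genes and 44.0% of those with at least 1 FPKM. Of the 19, 3 were counted as higher and 0 as lower, against 1.25% and 1.45% of all genes, with a median of 0.36. The 3 were Zfp36, an RNA-binding protein that shortens the life of chemokine mRNAs, at 98.2 against 30.5 FPKM (1.66), Il1b, at 3.37 against 0.739 (1.33), and Nfkbiz, a nuclear cofactor of NF-kappa B, at 5.29 against 1.82 (1.16). Tnf was at 0.358 and 0.702 FPKM, Csf3 stayed below 0.1 and Il17a was listed at 0 in each library. Nfkbia, the feedback inhibitor of NF-kappa B, had 46.4 and 34.2 FPKM.

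The profile of Cxcl1 over the 4 libraries was shared by few genes. Distance was taken as the root mean square difference of log2(FPKM + 1) profiles, each centred on its own mean, among 10194 named genes that reach 5 FPKM in a library. Fosb was nearest at 0.147, followed by Apold1 (0.371) and Fos (0.384), and 1 gene lay within 0.25. Fosb, a subunit of the immediate early factor AP-1, had 22.5 FPKM in OTD and 0.385 to 0.513 elsewhere. Fos had 131 FPKM in OTD and 12.3, 18.5 and 7.68 in YTD, OAD and YAD. Both immediate early genes were thus high in the same single library as Cxcl1.

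Interferon-induced members lay above YTD by less than the threshold. Cxcl10 was measured at 7.33 FPKM in OTD and 4.85 in YTD, a ratio of 1.51 (1.12 to 2.07) and a log2 difference of 0.51. Cxcl9, which depends more strictly on interferon gamma, stood at 2.91 and 1.33 FPKM, a ratio of 2.19 (1.62 to 3.02) and a difference of 0.75. Of the 11 genes of the interferon gamma route, 0 were counted as changed in either direction. Ifng itself was listed at 0 in both, and T cell markers summed to 3.38 and 2.23 FPKM. Cxcr3, the receptor of both chemokines, was at 1.09 FPKM in OTD and 0.290 in YTD (0.70).

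Among homeostatic members, Cxcl12, the ligand of Cxcr4 that holds leukocytes and progenitors in tissues, had 145 FPKM in OTD and 84.3 in YTD, a ratio of 1.72 (1.67 to 1.77) and a difference of 0.77. Its receptors showed similar ratios: Cxcr4 had 9.15 and 4.76 FPKM (0.82), and Ackr3, which scavenges Cxcl12, had 19.1 and 12.0 FPKM (0.63). Markers of endothelium, which makes Cxcl12, also lay higher in OTD for 10 of 10 genes, against 34.4% of all genes, with a median of 0.62. The ratio of Cxcl12 to Pecam1 was 1.22 in both libraries. Its ratios to Pdgfra, of fibroblasts and fat progenitors, were 24.2 and 22.2 in OTD and YTD, and those to Adipoq 0.34 and 0.30. The part of each cell type in the level of Cxcl12 was not tested. Cxcl13, the ligand of Cxcr5 that draws B cells, had 4.33 and 2.60 FPKM (0.56), whereas Cxcr5 stayed below 0.05 FPKM and B cell markers summed to 1.92 and 0.470. Cxcl14, an epithelial chemokine, was the member with a lower value in OTD, at 17.2 against 24.3 FPKM, a difference of -0.48. Keratinocyte markers had a median of -0.29, and hair shaft and matrix markers had one of -0.90. The part of these cells in the level of Cxcl14 was not tested.

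Both membrane-bound members lay above YTD by less than the threshold. Cxcl16, a scavenger receptor for oxidized lipids as well as the ligand of Cxcr6, had 4.98 FPKM in OTD and 2.70 in YTD, a ratio of 1.84 (1.47 to 2.33) and a difference of 0.69. Cx3cl1, which tethers monocytes through Cx3cr1, had 4.13 and 2.06 FPKM, a ratio of 2.01 (1.60 to 2.54) and a difference of 0.75. Cx3cr1 was at 0.593 and 0.499 FPKM. The sheddases Adam10 (0.32) and Adam17 (0.14) were not counted as changed.

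The comparison of OAD with YAD asked the same of the growth phase. None of the 10 members was counted as higher or lower, against 0.559% and 0.349% of all genes, and the median difference was 0.25 against 0 for all genes. All genes split into 128 higher and 80 lower, or 104 and 175 with TPM, which divides each library by its summed FPKM, 93 and 111 with equal sums and 108 and 113 without hair shaft genes, and no member was counted under any of these. Values above YAD by any amount were seen for 8 of the 10, against 38.4% of all genes and 49.9% of those with at least 1 FPKM.

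The neutrophil attractants could not be compared with any precision in anagen. Cxcl1 had 0.345 FPKM in OAD and 0.137 in YAD, a ratio of 2.52 whose interval of 0.426 to 27.3 spans 1. Cxcl2 and Cxcl5 were at or below 3 fragments in both libraries, so no ratio is given for them.

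Cxcl13 had the largest log2(FPKM + 1) difference of the 10 in anagen, with 2.34 FPKM in OAD against 1.07 in YAD, a ratio of 2.19 (1.28 to 3.80) and a difference of 0.69. Cxcl12 followed with 45.6 and 32.0 FPKM, a ratio of 1.43 (1.37 to 1.49) and a difference of 0.50, which was 0.27 with TPM. Cxcl9 had 0.316 and 0.0749 FPKM, a ratio of 4.22 (1.34 to 12.9) from 18.4 and 4.53 fragments, and a difference of 0.29. Cxcl10 had 0.574 and 0.459 FPKM (1.25, interval 0.422 to 3.22), Cxcl16 had 1.34 and 0.951 FPKM (1.40, 0.978 to 2.06), and Cxcl14 had 173 and 143 FPKM (1.21, 1.17 to 1.26). Cx3cl1 was lower in OAD, at 3.72 against 4.68 FPKM, a difference of -0.27. Endothelial markers lay higher in OAD for 10 of 10 genes, against 38.4% of all genes, with a median of 0.30. With TPM they did so for 8 of 10, with a median of 0.10. Adipocyte markers lay higher for 10 of 10 (median 0.31), or 6 of 10 with TPM. Fibroblast and fat progenitor markers lay lower for 8 of 11 (median -0.43), and macrophage markers for 11 of 12 (-0.26). Of the fibroblast list 3 were counted as lower, against 0.349% of all genes, and 2 of 10 neutrophil markers as higher, against 0.559%. The part of these cells in the member differences was not tested.

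**Figure D3:**
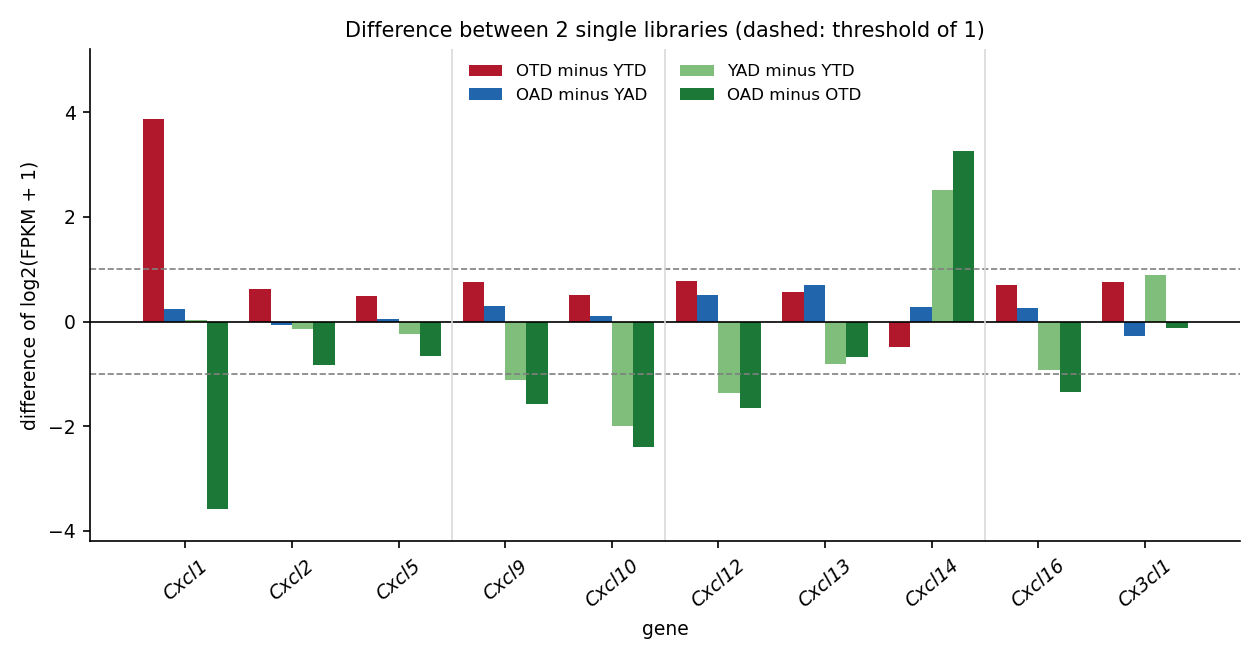
Differences of log2(FPKM + 1) between 2 single libraries for each chemokine, with bars from 0 and dashed lines at the threshold of 1. Cxcl1 passes it in OTD minus YTD (3.86) and OAD minus OTD (-3.59), Cxcl9, Cxcl10 and Cxcl12 fall below -1 in both comparisons of anagen with telogen, and Cxcl14 rises in both (2.51 and 3.26).

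Between phases members went in both directions. These comparisons use the same 4 libraries as those of age, so they are set beside them and are not separate evidence. In young mice (YAD against YTD) 1 member rose and 3 fell, against 12.3% and 12.8% of all genes. In old mice (OAD against OTD) 1 rose and 5 fell, against 12.5% and 12.0%. The counts of list and marker genes given below are to be read against the same shares. The median of the 10 was -0.52 in young and -1.09 in old, against 0 for all genes. Scaling bears on these counts: with TPM 2 rose and 1 fell in young and 1 rose and 4 fell in old, while all genes split into 5891 higher and 1274 lower in young in place of 2829 and 2938, and into 4923 and 1502 in old in place of 2854 and 2759. Equal sums without mitochondrial and muscle genes gave 2206 and 3619 of all genes in old, and leaving out hair shaft genes too gave 3492 and 2364 in young.

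Cxcl10 and Cxcl9 fell in anagen at both ages. From YTD to YAD Cxcl10 went from 4.85 to 0.459 FPKM, 10.6-fold lower (5.07 to 23.2) and -2.00 on the log2 scale. From OTD to OAD it went from 7.33 to 0.574 FPKM, 12.8-fold lower (7.01 to 28.6) and -2.40. Under each of the 4 other scalings tried, Cxcl10 stayed below -1 in both comparisons. Cxcl9 fell from 1.33 to 0.0749 FPKM in young (17.8-fold, 6.50 to 51.0; -1.12) and from 2.91 to 0.316 FPKM in old (9.21-fold, 5.75 to 16.3; -1.57), but in young its difference was -0.90 with TPM, short of the threshold.

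The interferon gamma route moved in the same direction. Of its 11 genes, 8 fell in young and 7 in old, against 12.8% and 12.0% of all genes, with medians of -1.28 and -1.35. With TPM 2 and 4 fell, against 1274 and 1502 of all 22913 genes. Irf1, a transcription factor induced by interferon, fell by 1.75 in young and 1.97 in old on the log2 scale, and Gbp2, a guanylate-binding protein induced by interferon, had 22.8, 13.2, 3.18 and 2.19 FPKM in OTD, YTD, OAD and YAD. Ifng was listed at 0 in each library but OAD, where about 1 fragment was seen.

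The profile of Cxcl10 was a common one. Within a distance of 0.25 lay 282 of the 10194 genes, and the nearest were Sp100 (0.023), a nuclear body protein induced by interferon, Ccl12 (0.023), a monocyte attractant with 6.58, 4.37, 0.391 and 0.343 FPKM in OTD, YTD, OAD and YAD, and Cd34 (0.042). Markers of macrophages, which can make both interferon-induced chemokines, fell for 10 of 12 genes in each comparison (5 and 10 with TPM), their sums being 838, 515, 108 and 137 FPKM. T cell markers, which summed to 3.38, 2.23, 1.18 and 1.63 FPKM, had 0 of 8 measured genes past the threshold, and Cxcr3 went from 1.09 FPKM in OTD to 0 in OAD (-1.07, short of the threshold with TPM). The part of these cells in the fall of Cxcl10 was not tested.

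Cxcl12 fell at both ages, from 84.3 to 32.0 FPKM in young (2.64-fold, -1.37) and from 145 to 45.6 FPKM in old (3.18-fold, -1.65). With TPM the differences were -0.55 and -1.04, so in young mice Cxcl12 stayed lower but was not counted. Under the other scalings its difference in young was -1.36, -1.38 and -1.14. Endothelial markers fell for 10 of 10 genes in both comparisons, with medians of -1.62 and -1.88, and adipocyte markers for 9 and 8 of 10, numbers that became 3 and 9 and 3 and 4 with TPM. Relative to Pecam1, Cxcl12 was higher in anagen, at 1.91 in OAD and 1.75 in YAD against 1.22 in both telogen libraries. Relative to Pdgfra, a fibroblast and fat progenitor marker, it had 24.2, 22.2, 22.5 and 10.4 in OTD, YTD, OAD and YAD, and the markers of these cells had medians of -1.15 in young and -2.72 in old. Ackr3 (19.1, 12.0, 4.32 and 3.83 FPKM in OTD, YTD, OAD and YAD) and Ackr1, an atypical receptor of venular endothelium that binds CXC and CC chemokines (46.8, 37.5, 12.3 and 8.24 FPKM), were counted as lower in both comparisons, Ackr3 in young not with TPM. Cxcr4 was not (-0.64 in old and -0.35 in young), and the ratio of Cxcl12 to Cxcr4 went from 15.8 and 17.7 in OTD and YTD to 8.25 and 9.12.

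Of the 8 sheddases and ligand-trimming enzymes, Dpp4 was counted as higher and Mmp2 and Mmp9 as lower in both phase comparisons. Dpp4, which removes the first residues of Cxcl12 and inactivates it, had 4.64, 2.45, 11.8 and 8.82 FPKM in OTD, YTD, OAD and YAD. It rose in young (1.51) and old (1.18, short of the threshold with equal sums without mitochondrial and muscle genes). Mmp2, which also cuts Cxcl12, had 56.2, 32.1, 9.71 and 14.9 FPKM and fell in both (-1.06 and -2.42). Mmp9 fell as well (-1.003 and -1.346), at 2.28, 1.54, 0.291 and 0.267 FPKM. In young, neither was counted as lower with TPM or without hair shaft genes, and 1 of them with median-of-ratios scaling. Mmp14 (26.2, 16.9, 24.4 and 26.7 FPKM) was not counted in either comparison on the FPKM as deposited. With TPM 3 of the 8 genes were counted as higher in young and none as lower. The nearest profiles to that of Cxcl12 were those of Kcne4 (0.034), Ppp1r14a (0.044) and H2-Q4 (0.046), whose reads may be shared with close copies, and 307 genes lay within 0.25.

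Cxcl14 was the member that rose. It went from 24.3 FPKM in YTD to 143 in YAD, 5.89-fold higher (5.44 to 6.40) and 2.51 on the log2 scale, and from 17.2 FPKM in OTD to 173 in OAD, 10.1-fold higher (9.22 to 11.1) and 3.26. The rise held under each scaling tried. Keratinocyte markers rose for 8 of 10 genes in young and 7 of 10 in old, their sums being 60.6, 89.3, 1474 and 1021 FPKM in OTD, YTD, OAD and YAD, and hair shaft and matrix markers rose for 13 of 13 in both. Relative to Krt5, Cxcl14 was lower in anagen, at 0.281 in OAD and 0.306 in YAD against 0.896 and 0.695 in OTD and YTD. Relative to Krt14 the values were 0.623, 0.709, 0.383 and 0.645 in OTD, YTD, OAD and YAD, so in young mice the size of this difference depends on the marker. Slc25a37 (0.039), Tmprss13 (0.048) and Krtcap3 (0.067) had the nearest profiles, and 142 genes lay within 0.25. How much of the Cxcl14 came from follicle cells in the dissected fat was not tested.

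Cxcl13 did not reach the threshold between phases, with 2.60 and 1.07 FPKM in YTD and YAD (-0.80) and 4.33 and 2.34 in OTD and OAD (-0.67). Of the 8 genes of the lymphotoxin route that drives it, Relb (-1.15) and Map3k14 (-1.05) fell in young and Map3k14 (-1.14) in old, and none of these calls was kept with TPM. Cxcl16 fell in old, from 4.98 to 1.34 FPKM (3.72-fold, -1.36), and stood at 2.70 and 0.951 FPKM in young (2.84-fold, -0.92). With TPM the difference in old was -0.92. Its receptor Cxcr6 had 0.333, 0.0423, 0.254 and 0.335 FPKM, and its ratio to the macrophage gene Cd68 was 0.120, 0.154, 0.226 and 0.135 in OTD, YTD, OAD and YAD.

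Cx3cl1 was counted as changed in neither phase comparison. It had 2.06 FPKM in YTD and 4.68 in YAD, 2.28-fold (1.83 to 2.85) and 0.89 on the log2 scale, which passed the threshold with TPM (1.55), and 4.13 and 3.72 FPKM in OTD and OAD, where the ratio of OTD to OAD of 1.11 had an interval of 0.927 to 1.34. YTD was thus the low library for Cx3cl1. Its ratio to Pecam1 was 0.0347 and 0.0298 in OTD and YTD and 0.156 and 0.256 in OAD and YAD, whereas its ratio to Krt5 was 0.215 and 0.0588 in OTD and YTD and lower in OAD and YAD. Cx3cr1, found on monocytes and macrophages, went from 0.593 and 0.499 FPKM in telogen to 0.0386 and 0.0153 in OAD and YAD, from 46.6 and 37.7 fragments to 3.61 and 1.49. On the log2(FPKM + 1) scale the receptor stayed short of the threshold (-0.56 in young and -0.62 in old).

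Of the neutrophil attractants, Cxcl1 fell from OTD to OAD, by 43.9-fold (19.3 to 143; -3.59), and kept this under each scaling. Cxcl2 was at least 4.85-fold lower in OAD than in OTD against a floor of 3 fragments (0.161 FPKM), with a difference of -0.83, and Cxcl5 was 18.2-fold lower (2.97 to 801; -0.66). In young mice Cxcl1 and Cxcl2 were at or below 3 fragments in both phases. Cxcl3 fell as well in old (-1.11, short of the threshold with TPM), as did Il1b (-1.77), Tnfrsf1b (-1.45) and Zfp36 (48.6 against 98.2 FPKM) among the 19 genes of the inducing route and its repressors, of which Il1b kept its call with TPM, whereas Il1a, which keratinocytes make, rose in young (1.44) and old (1.07, short of the threshold with equal sums without mitochondrial and muscle genes). Of the 19 genes, 2 were counted as higher and 1 as lower in young, against 12.3% and 12.8% of all genes. With TPM these counts were 8 and 0, against 5891 and 1274 of all 22913 genes. Pf4, the platelet and macrophage member of the cluster, had 72.3, 63.4, 8.84 and 14.0 FPKM in OTD, YTD, OAD and YAD and fell in both phase comparisons (-2.10 in young, -2.90 in old).

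**Figure D4:**
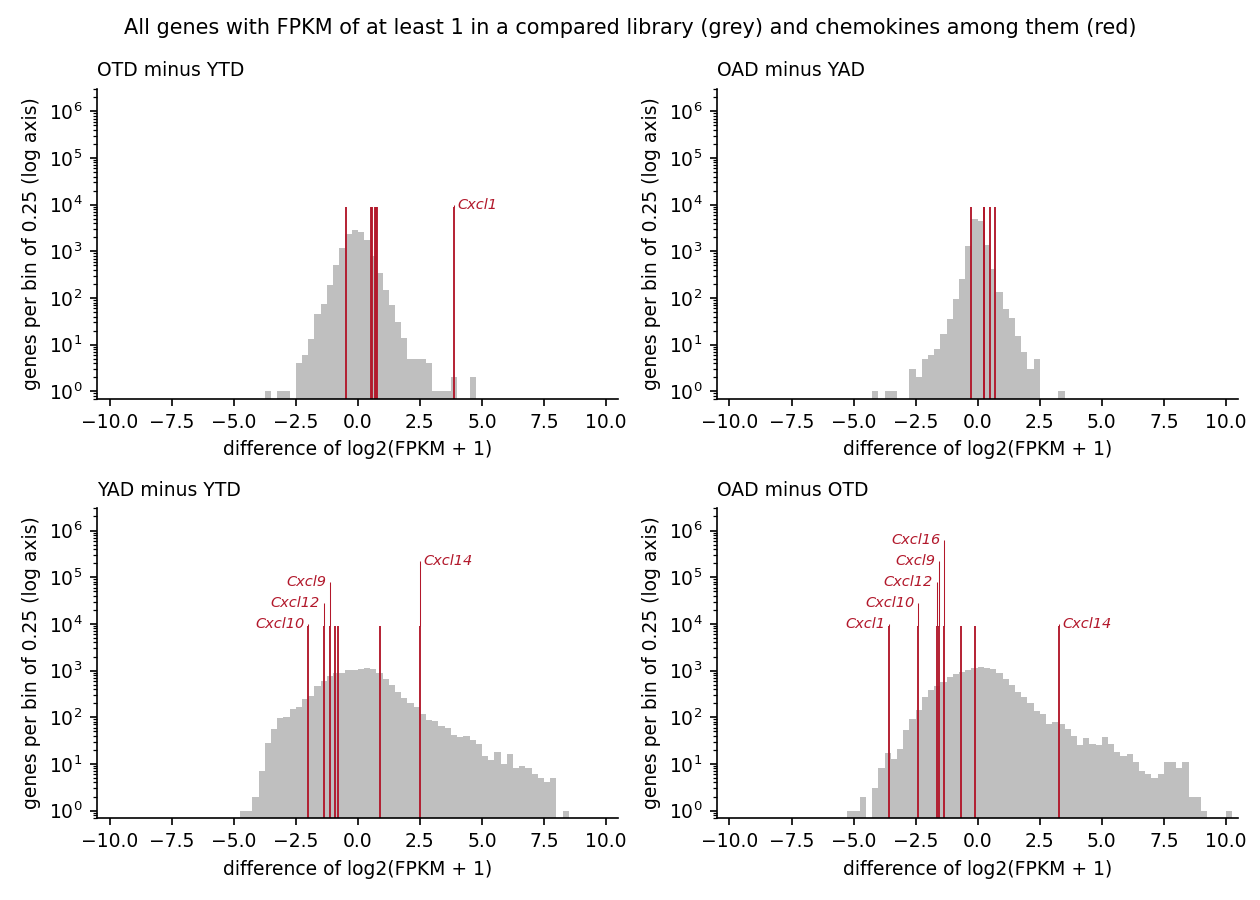
Histograms of the difference of log2(FPKM + 1) for genes with at least 1 FPKM in either library compared (grey, bins of 0.25, log axis of gene numbers), with red lines for the chemokines among them and names for those past 1 in size. The distributions are narrow for the 2 age comparisons, where Cxcl1 (3.86) stands out in telogen, and wide for the 2 phase comparisons, where 25.2% and 24.5% of all genes pass the threshold.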

How the data were processed

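RNA sequencing of dWAT from OTD, YTD, OAD and YAD was analysed, with 1 library per group. Each deposited file holds FPKM, as computed by the authors, for 22913 genes with their positions on GRCm38. The submitters' processing notes name TopHat2 and bcl2fastq, and the annotation and the program that computed FPKM are not given in the sources used here. RNA had an integrity number above 7.5 per the labels. Symbols came from GENCODE identifiers. FPKM were used as deposited, differences were taken on log2(FPKM + 1), and a size of at least 1 was counted as changed, with no test. Listed lengths are coding lengths (97.0% are multiples of 3), whereas low FPKM lay closest to steps of whole fragments over the full transcript less 270 bases. This step, fitted on 2944 genes with 1 transcript, gave 18600000, 17900000, 22200000 and 23100000 fragments for OTD, YTD, OAD and YAD, and the floor of 3 fragments. The fit was partial: its concentration at whole numbers, 1 for exact steps, was 0.354, 0.42, 0.503 and 0.589 in the same order. Depths are estimates, so intervals (exact, 95%) and floors cover counting error only. The analysis was tested on data simulated with the same length model, which cannot show whether the deposited FPKM follow that model. Python 3.11.15, numpy 2.4.6, pandas 2.3.3, scipy 1.17.1 and matplotlib 3.10.9 were used.

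Members and gene lists were chosen with earlier results of these data known. Genes named beside the members are those of the lists that passed the threshold, reached 5 FPKM or are a member's receptor, with some others chosen after their values were seen, and the 3 genes nearest in profile to each member that reaches 5 FPKM and spans at least 1 log2 unit. Marker lists are given by counts, medians and sums. Motifs were chosen after the promoters were seen. Alternatives were pseudocounts of 0.1 and 0.01, a minimum of 1 FPKM, a threshold of 1.5, median-of-ratios scaling, TPM, equal sums without mitochondrial and muscle genes and, chosen after seeing the data, the same without hair shaft genes. Some results are not reported here.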

Additional observations from a re-analysis of the deposited data

Results flagged for a closer look

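Cxcl14 differed in opposite directions between the ages in the 2 phases, with old minus young at -0.48 in telogen and 0.27 in anagen on the log2(FPKM + 1) scale. With 3 of the 4 other scalings the anagen value was smaller, at 0.04 with TPM, 0.12 with equal sums without mitochondrial and muscle genes and 0.16 when hair shaft genes were left out too. Cx3cl1 did so too, at 0.75 in telogen and -0.27 in anagen, and its anagen minus telogen difference was 0.89 in young and -0.12 in old mice. None of these values reached 1 in size, each group is 1 library, and the difference between the pairs of values was not tested.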

How the results depend on the processing

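No paired analysis was possible because each group is 1 library, and for the same reason no library could be left out. Counts moved most with the pseudocount. In OTD minus YTD the members counted as changed went from 1 to 4 with a pseudocount of 0.1 and to 5 with 0.01, while all genes went from 620 to 2144 and 3445, and to 141 with a threshold of 1.5. In OAD minus YAD the members went from 0 to 2 (Cxcl9 and Cxcl13) and 5, and all genes from 208 to 1109 and 2435, or 58 with the threshold of 1.5. In YAD minus YTD the members went from 4 to 8 and 9, or 2 with the threshold of 1.5 (Cxcl14 and Cxcl10), and all genes from 5767 to 9761 with 0.01 and 3280 with 1.5. In OAD minus OTD all genes went from 5613 to 9616 and 3178 in the same order. TPM shifted the median of 15507 genes above 0 in all libraries to -0.18 in OAD minus YAD, 0.57 in YAD minus YTD and 0.43 in OAD minus OTD. Equal sums without mitochondrial and muscle genes moved it to -0.12 in OAD minus YAD and -0.19 in OAD minus OTD, and the scaling that also leaves out hair shaft genes, chosen after seeing the data, moved it to 0.12 in YAD minus YTD and brought Cx3cl1 past the threshold there. Of 268 recomputed differences of single members 1 changed sign, that of Cx3cl1 in OAD minus OTD, from -0.12 to 0.37 with TPM. Where a member has few fragments, depth limits the comparison, as for Cxcl1, Cxcl2 and Cxcl5 outside OTD.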
